A study of Mus musculus with 18 samples.

Results

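Mammalian liver packs triglyceride and cholesterol into lipoproteins and releases them into the blood. Mttp, the microsomal triglyceride transfer protein, loads lipid onto apolipoprotein B, the scaffold protein of very low density lipoprotein, encoded by Apob. Smaller apolipoproteins such as Apoa1, Apoc2, Apoc3 and Apoe sit on the particle surface and steer its metabolism, and hepatic lipase, encoded by Lipc, trims triglyceride and phospholipid from particles after secretion. Feeding and the circadian clock set the daily course of lipid handling in the liver, so the level of these transcripts over the day is of interest.

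The genes described here are 10 named members of this machinery, Apoa1, Apoa4, Apoa5, Apob, Apoc2, Apoc3, Apoe, Apom, Mttp and Lipc, found by their symbol in a table of 14451 genes. They gave 11 rows, because a second row also carried the symbol Apoc2. Poly(A) RNA was sequenced from 18 whole livers of wild-type (WT) male mice aged 8 to 9 weeks, with 3 livers at each of 6 zeitgeber times (ZT), which were ZT1, ZT5 and ZT9 in the light and ZT13, ZT17 and ZT21 in the dark, under 12 h of light and 12 h of dark and ZT counted from lights on. No strain is given, no allele or agent was applied to any group, and the 3 livers of a time were picked for RNA quality from a larger group of mice. Each liver came from 1 mouse and was taken once, so the profile is a series of different animals over a single day.

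Values are estimated reads scaled by the study to about 1000000 reads per liver, with an offset of 0.5 reads, and are called normalized values below. Depth ran from 10268168 to 23242842 estimated reads per liver (median 12078875), and the least covered member, Gm44805 (the second Apoc2 row), still had 658 reads in its shallowest liver. Counting error was therefore at most 3.90% of a value, and was below 0.5% for Apoa1, Apob and Apoe. The clock genes Arntl, Nr1d1, Dbp and Per2 were all past the test for a 24 h rhythm, with fitted peaks at ZT21.0, ZT6.2, ZT8.6 and ZT13.9. All 8 hepatocyte markers were measured, with a sum of 76266 to 107389 per liver. The 10 markers of Kupffer cells and macrophages, cells that can also express Apoe, summed to between 152 and 390, the 8 of sinusoidal endothelium to between 153 and 319, the 8 of stellate cells to between 183 and 334 and the 5 measured of cholangiocytes to between 31.5 and 57.5. Of 7 markers of intestine, where Apob, Apoa1 and Apoa4 are also made, 2 were in the table (summed value 55.1 to 79.0), of 6 of pancreas 2 were (6.04 to 15.3), and of 5 of adipose tissue 0 were. In whole livers, fewer cells of a type and less RNA per cell cannot be told apart.

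These genes sat at very different levels. Their order depends on the exon length used, which counts every base in any annotated exon of a gene. That need not be the length of the transcripts present in liver. Before division by it, Mttp had a mean of 332 and Apom of 162, while Apom ranks above Mttp below. Per kilobase of exon, Apoe, the receptor ligand of remnant particles, had the highest normalized value at 5550 ± 513 (SD, n = 18 livers), followed by Apoa1, the main protein of high density lipoprotein (HDL), at 5342 ± 740. These 2 neighbours in the order did not differ beyond their spread. Apoc3, an inhibitor of triglyceride clearance, followed at 959 ± 156 per kilobase. Apob at 422 ± 40.3 and Apoa5, an activator of triglyceride clearance, at 400 ± 57.0 overlapped. Apom, an HDL protein that carries sphingosine-1-phosphate, stood at 160 ± 18.4 per kilobase. Below it came Apoc2, the cofactor of lipoprotein lipase, at 98.0 ± 19.1, Gm44805 at 95.1 ± 15.5, Apoa4 at 78.1 ± 41.7, Lipc at 60.7 ± 6.27 and Mttp at 53.5 ± 4.75, and each of these overlapped with the next. All 11 rows together held between 2.48% and 3.21% of a liver's summed normalized values. By time this share had its lowest mean at ZT17 (2.58% ± 0.06, SD, n = 3) and its highest at ZT5 (2.82% ± 0.09). The sum it is divided by also differed, at 1030952 to 1077230 per liver at ZT17 and 941088 to 969019 at ZT5. A difference in share is therefore not by itself a difference in the level of these genes.

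Only Lipc had a rhythm of 24 h that passed the test. A cosine and sine of 24 h were fitted to log2(value + 1) with limma, and a gene was called at an adjusted p (Benjamini-Hochberg over 14449 genes) below 0.05. Of all genes tested, 35.3% were called, against 1 of the 11 rows here (9.09%). The median fitted peak-to-trough difference was 0.26 (log2) over the 11 rows and 0.32 over all genes. A test for differences of any shape over the 6 times called 26.3% of all genes and again only Lipc among the 11 rows. A 12 h term added to the 24 h curve was called in 0.872% of all genes and in 0 of the 11 rows by limma (0 of them with an unadjusted p below 0.05).

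**Figure D1:**
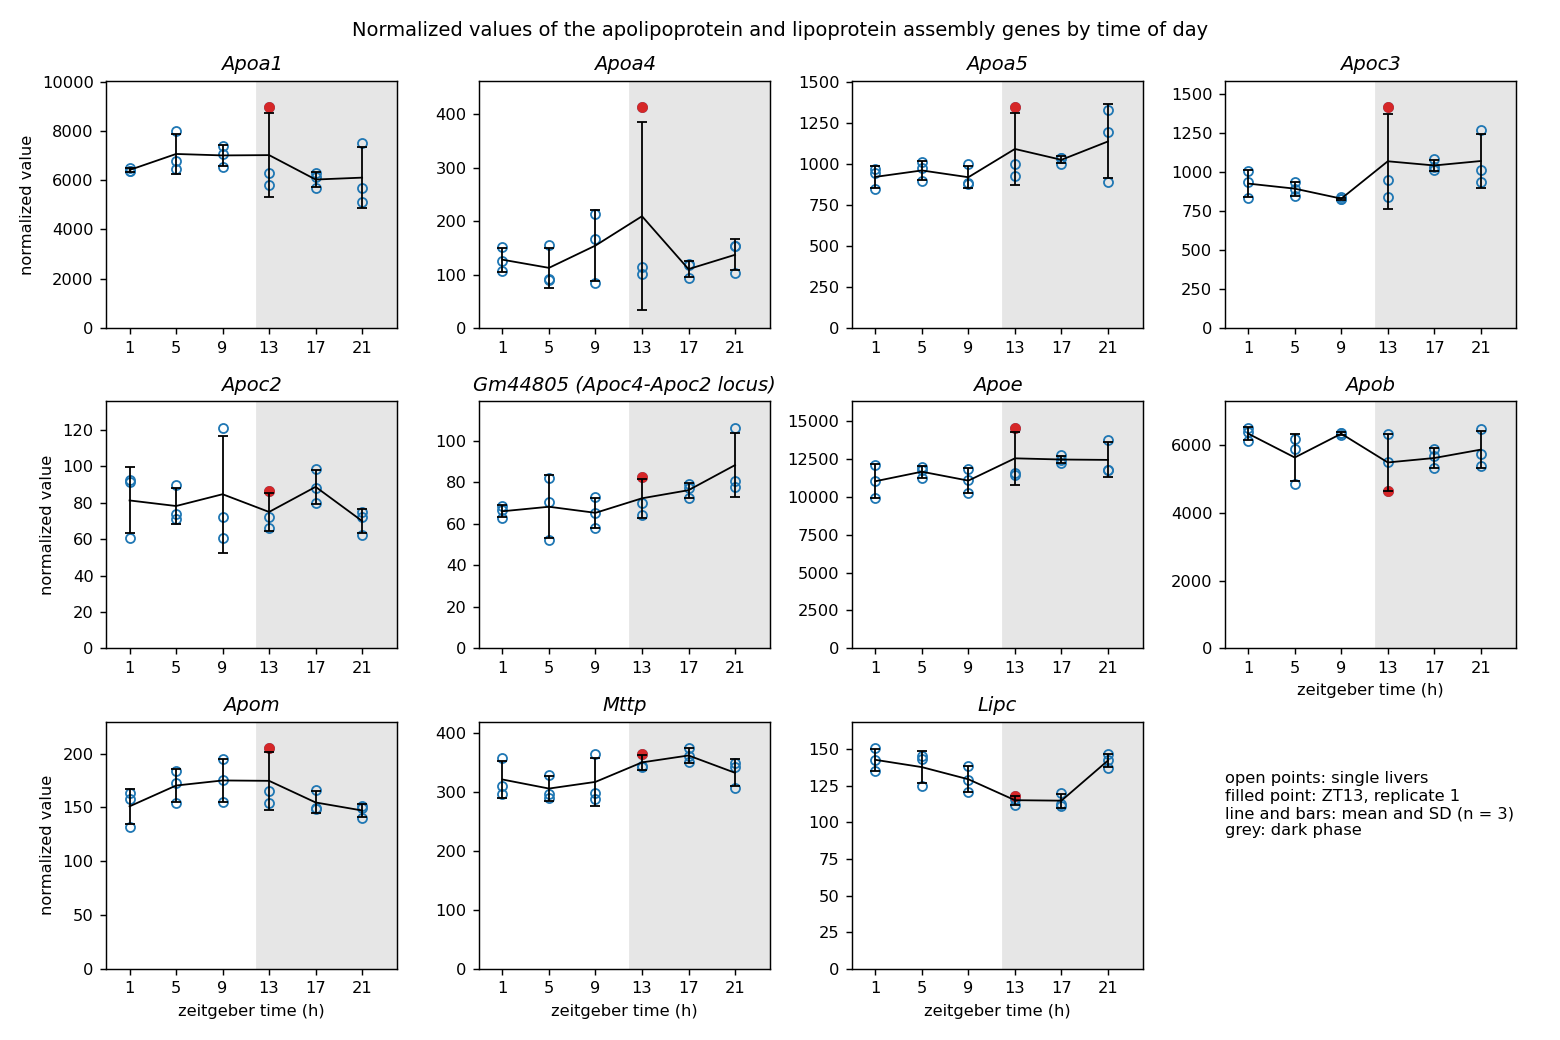
Normalized value (y axis, from 0) against zeitgeber time (x axis, h) for the 11 rows, with 1 point per liver, the mean and SD of 3 livers per time as a line with bars, and the dark phase in grey. Lipc is low in all livers of ZT13 and ZT17, while most other genes overlap between times, and the filled point, ZT13 replicate 1, stands above the other livers in 6 rows and below them in Apob.

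Lipc lies on chromosome 9 (GRCm38, 70798128 to 70952226, minus strand). Its normalized values at ZT1 were 135.3, 150.7 and 142.5. At ZT5 they were 125.1, 143.0 and 145.3, and at ZT9 138.5, 121.0 and 129.1. In the early dark phase they were lower, at 118.1, 115.8 and 111.8 for ZT13 and at 112.7, 120.4 and 111.5 for ZT17. The values of ZT21 were back at 146.6, 142.9 and 137.4. So the 6 livers of ZT13 and ZT17 all lay below the other 12, with 120.4 as their highest value and 121.0 as the lowest of the rest, a pattern seen after the values were known and held by 1.23% of all genes. The groups nearly touch at that point, and the mean was 115.1 in the 6 livers and 138.1 in the 12.

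The fitted curve of Lipc peaked at ZT1.8 ± 0.8 (SE) with a peak-to-trough difference of 0.34 ± 0.07 (log2, SE, n = 18), or 1.27-fold (limma adjusted p = 0.00457). Over all shapes its adjusted p was 0.0204. Between times 12 h apart, Lipc fell by 0.31 ± 0.08 on the log2 scale from ZT1 to ZT13 (limma adjusted p = 0.0245), or to 0.81 times its ZT1 level (95% interval 0.71 to 0.92). Of all genes, 14.2% were called in that comparison and 7.42% were called as lower at ZT13. From ZT5 to ZT17 it fell by 0.26 ± 0.08 (adjusted p = 0.0437), to 0.84 times (0.74 to 0.95), where 19.7% of all genes were called and 10.5% were lower. In both comparisons the 3 livers of the later time lay entirely below the 3 of the earlier time, as 16.8% and 18.9% of all genes did. The third such pair, ZT21 against ZT9, differed by 0.14 ± 0.08 and did not pass (adjusted p = 0.337), with 10.7% of all genes called.

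Both calls between times were lost without some single livers, while the differences kept their direction and about their size. The call for ZT13 against ZT1 was lost without either of ZT1 replicates 2 and 3 or ZT13 replicates 2 and 3, with adjusted p up to 0.0994 (limma). The difference stayed between -0.34 and -0.27 over all 18 fits. The call for ZT17 against ZT5 was lost 11 times when each of 18 livers was dropped in turn, namely without ZT5 replicates 2 or 3, any liver of ZT17, ZT1 replicate 3, ZT9 replicate 3, ZT13 replicates 2 or 3, or ZT21 replicates 2 or 3, with adjusted p up to 0.140. The difference stayed between -0.33 and -0.22, and it was -0.26 as before where the liver left out was of ZT1, ZT9, ZT13 or ZT21. The 24 h call of Lipc held in all 18 of these fits.

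No row passed between neighbouring times. Over the 6 steps of 4 h, 0 of 66 comparisons were called by limma and 2 were below an unadjusted p of 0.05. Of all genes, 4.89% were called from ZT1 to ZT5, 1.54% from ZT5 to ZT9, 9.23% from ZT9 to ZT13, 1.2% from ZT13 to ZT17, 1.51% from ZT17 to ZT21 and 0.131% from ZT21 to ZT1. The step with the lowest adjusted p was that of Lipc from ZT17 to ZT21, with a log2 difference of 0.31 ± 0.08 and means of 114.9 and 142.3 (limma adjusted p = 0.0894).

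The precision of Lipc differed from that of the other genes. Its SD within a time was 5.39% of its mean. Of the 7531 genes with a mean value of at least 10, 6.92% had a smaller SD on the log2 scale. With that spread, a fitted rhythm of 1.17-fold would have been enough for a call. For the other rows the smallest fold that would have been called was between 1.19 (Mttp) and 1.33 (Gm44805), except for 1.47 in Apoc2 and 2.16 in Apoa4. So rhythms as large as that of Lipc could have passed in Mttp, Apoe, Apom and Apob and not in Apoa1, Apoa5, Apoc3, Gm44805, Apoc2 or Apoa4.

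**Figure D2:**
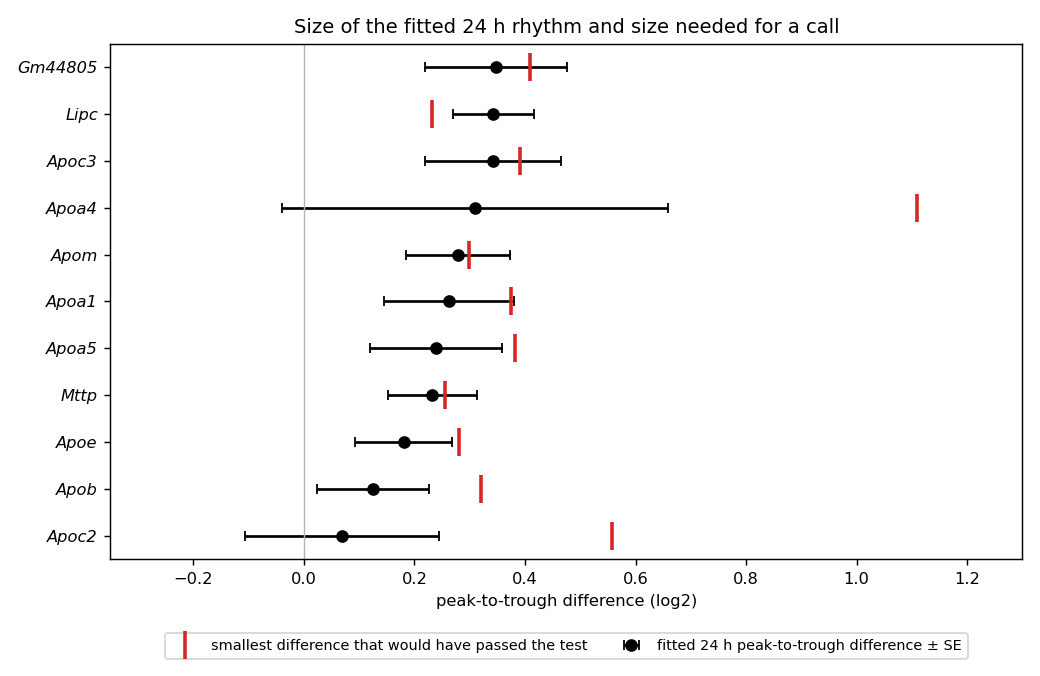
Fitted 24 h peak-to-trough difference (x axis, log2) with its SE for each row (y axis), and as a vertical mark the smallest difference that the test would have called. Only Lipc, at 0.34, lies to the right of its mark, while Gm44805 (0.35) and Apoc3 (0.34) are as large but stay left of theirs.

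The starts of Lipc and of Apoa5 are shown because Lipc is the gene that passed and Apoa5 is the only member with an E-box, the letters CACGTG that clock proteins bind. RefSeq (GRCm38.p6) has promoter entries for 9 of the 10 symbols and none for Apoc3, giving 13 windows of 250 bases before a start. Searched on both strands were the E-box, the nuclear receptor half-site AGGTCA, the D-box TTANGTAA and the HNF4-type element CAAAGNNCA, which can hold an AGGTCA within it. Over all 32851 windows in the table these letters occurred in 6.02%, 14.0%, 2.06% and 5.49%. A match describes letters and not a site in use. Lipc has 2 annotated starts, both on the minus strand. The first window, chr9:70934809-70935058, lies inside the span of the gene. The second, chr9:70952222-70952471, lies at the outer end of the gene. Apoa5 also has 2 starts in RefSeq, both on the plus strand. The window shown, chr9:46268383-46268632, ends just before the annotated start of the gene, and the other, chr9:46268358-46268607, overlaps it, holds the same E-box and has a start not found in the annotated transcripts. Capitals mark the matches, which in the first Lipc window are a half-site 88 to 83 bases before the start and, on the other strand, an HNF4-type element 76 to 68 bases before it.
Lipc, inner start: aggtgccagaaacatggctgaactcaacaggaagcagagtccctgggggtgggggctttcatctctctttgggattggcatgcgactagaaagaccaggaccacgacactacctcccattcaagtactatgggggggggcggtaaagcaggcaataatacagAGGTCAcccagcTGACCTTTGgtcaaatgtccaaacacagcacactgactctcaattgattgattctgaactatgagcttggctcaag
Lipc, outer start: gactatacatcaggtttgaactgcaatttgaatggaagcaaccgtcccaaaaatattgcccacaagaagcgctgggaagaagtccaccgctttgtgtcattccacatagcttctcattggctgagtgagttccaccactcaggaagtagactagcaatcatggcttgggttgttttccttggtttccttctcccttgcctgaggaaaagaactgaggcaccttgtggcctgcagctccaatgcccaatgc
Apoa5: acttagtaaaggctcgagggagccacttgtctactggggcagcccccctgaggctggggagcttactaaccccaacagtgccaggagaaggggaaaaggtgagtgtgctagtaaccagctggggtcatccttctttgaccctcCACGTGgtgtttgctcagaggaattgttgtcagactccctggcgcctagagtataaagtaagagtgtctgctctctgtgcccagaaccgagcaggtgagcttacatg
The E-box of Apoa5 lies 107 to 102 bases before the start shown and 82 to 77 bases before the other. The outer Lipc window holds none of the 4 motifs. Among the other members, Apoa4 and Apob each have an HNF4-type match, Apoc2 has a half-site, and the windows of Apoa1, Apoe, Apom and Mttp hold none.

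Mttp and Apob form the assembly step. Mttp (chromosome 3, 138089854 to 138144968, minus strand) had its highest mean at ZT17, at 362 ± 12.0 (SD, n = 3), and its lowest at ZT5, at 306 ± 20.9. Its 3 livers at ZT17 had 350.6, 362.2 and 374.6 and its 3 at ZT5 had 291.0, 330.0 and 297.8, which do not overlap, as in 18.3% of all genes in this direction. The limma contrast of the pair was not called (adjusted p = 0.111). The fitted difference was 0.23 ± 0.08 (log2) with a peak at ZT16.5, and the adjusted p of 0.0772 missed the threshold. Mttp gained a call in 5 of 29 other analyses, with adjusted p between 0.0318 and 0.380 over the limma fits. Among these were the fits without ZT1 replicate 3 (0.0396) and without ZT9 replicate 1 (0.0451).

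Apob (chromosome 12, 7977648 to 8016835, plus strand) had its highest mean at ZT1, at 6340 ± 191, and its lowest at ZT13, at 5490 ± 844. The ZT13 livers had 4639, 6327 and 5504, so the low mean at ZT13 came with a wide spread. Its fitted difference was 0.12 ± 0.10 (adjusted p = 0.578), the second smallest of the 11 rows after Apoc2. A 24 h rhythm of 1.25-fold would have been called.

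Apoa1, Apoc3, Apoa4 and Apoa5 lie side by side on chromosome 9. In GRCm38 they span 46228580 to 46230466 (Apoa1, plus), 46232933 to 46235636 (Apoc3, minus), 46240696 to 46243459 (Apoa4, plus) and 46268633 to 46271919 (Apoa5, plus). None of the 4 was called, and their fitted peaks lay between ZT8.0 and ZT18.2. Apoc3 had a fitted difference of 0.34 ± 0.12 with a peak at ZT18.2 (adjusted p = 0.0902). Its livers at ZT9 had 826.2, 826.9 and 837.9, all below the ZT21 livers with 1269, 934.7 and 1012, as in 15.2% of all genes, and the limma contrast of this pair was not called (adjusted p = 0.166). Its highest value, 1416, was in ZT13 replicate 1. Left without that liver, Apoc3 was called (adjusted p = 0.0180, difference 0.34, peak at ZT19.8). Apoa5 had a fitted difference of 0.24 ± 0.12 with a peak at ZT17.6 (adjusted p = 0.262), and its time means ran from 919 ± 67.5 at ZT9 to 1137 ± 226 at ZT21. Apoa1 had its fitted peak at ZT8.0 with a difference of 0.26 ± 0.12 (adjusted p = 0.194), and means from 6025 ± 323 at ZT17 to 7062 ± 823 at ZT5.

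Apoa4, a lipid-responsive apolipoprotein of intestine and liver, was the most variable member. Its values were 106.9, 151.9 and 124.5 at ZT1, then 156.0, 89.3 and 92.1 at ZT5. At ZT9 they were 83.4, 212.8 and 166.7, and at ZT13 412.8, 100.5 and 114.2. They closed with 93.1, 119.8 and 117.6 at ZT17 and 153.4, 103.3 and 154.1 at ZT21. Every time overlapped with every other one, and the whole range, 83.4 to 412.8, is 4.95-fold. Its SD within a time was 42.8% of the mean. Of the 7531 genes with a mean value of at least 10, 99.1% had a smaller SD on the log2 scale. The fitted difference was 0.31 ± 0.35 (adjusted p = 0.750). Apoa4 is overlapped on the other strand by Gm10680, and whether strand was used in counting is not given in the sources used here, so reads of the pair may be mixed. Gm10680 ranged from 11.2 to 38.3 and was also highest in ZT13 replicate 1.

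Apoe and Apoc2 lie on chromosome 7 (19696109 to 19699188 and 19671579 to 19677941, both minus strand). Apoe had time means between 11029 ± 1105 at ZT1 and 12541 ± 1740 at ZT13, with a fitted difference of 0.18 ± 0.09 and a peak at ZT16.8 (adjusted p = 0.244). The 10 macrophage markers had their highest mean sum at ZT9 (335) and their lowest at ZT21 (206). Of these 10, 5 passed the 24 h test, against 35.3% of all genes. All 5 had a peak in the light phase, as did 2634 of the 5103 genes called. The test for differences of any shape called 1 of the 10 markers, against 26.3% of all genes. Their part in the Apoe value was not tested.

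The Apoc2 locus was counted in 2 rows. The second, ENSMUSG00000109350, is Gm44805 in GENCODE M21 (19671584 to 19681423, minus strand), a model that starts in the neighbouring Apoc4 and shares exons with Apoc2, so that the division of reads between the 2 rows is uncertain. Apoc2 itself ranged from 60.4 to 121.2 and had the smallest fitted difference, 0.07 ± 0.18 (adjusted p = 0.946). Gm44805 ranged from 52.0 to 106.2, with a difference of 0.35 ± 0.13 and a peak at ZT19.0 (adjusted p = 0.101). Gm44805 was called in the fit without ZT5 replicate 1 (0.43, adjusted p = 0.0354). With both rows added up, the difference was 0.17 (adjusted p = 0.530).

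Apom (chromosome 17, 35128997 to 35132050, minus strand) had its highest means at ZT9 (175) and ZT13 (175) and its lowest at ZT21 (147). The ZT21 livers had 149.5, 151.4 and 140.6, all below the ZT9 livers with 154.9, 194.8 and 175.5, as in 15.3% of all genes. The limma contrast of this pair was not called (adjusted p = 0.233). The ZT13 livers had 205.0, 165.6 and 153.7. Its fitted difference was 0.28 ± 0.09 with a peak at ZT9.5 and an adjusted p of 0.0686. It gained a call in 4 of 29 other analyses (adjusted p between 0.0314 and 0.151 over the limma fits), 1 of which was without ZT9 replicate 1 (0.0363).

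One liver carried much of the spread. ZT13 replicate 1 had the highest value of all 18 livers in 6 of the 11 rows, Apoa1, Apoa4, Apoa5, Apoc3, Apoe and Apom, while it was highest in 10.3% of all genes. It had the lowest value in Apob, as it did in 8.93% of all genes. Against the mean of the other 2 livers of ZT13 it was 3.85-fold higher in Apoa4, 1.58-fold in Apoc3, 1.48-fold in Apoa1, 1.39-fold in Apoa5, 1.28-fold in Apom and 1.26-fold in Apoe. By size of difference Apoa4 ranked 11 of 7531 genes with a mean value of at least 10. In Lipc (1.04-fold) and Mttp (1.06-fold) this liver was close to the other 2. The sum of 8 blood markers ran from 115 in a liver of ZT13 to 686 in a liver of ZT5. Only the lowest, mean and highest sum of each time were taken, so the ZT13 liver with 115 need not be replicate 1. That sum's part in the result was not tested. ZT21 replicate 1 was among the 2 highest livers in 5 of the 11 rows, against 11.2% of all genes.

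**Figure D3:**
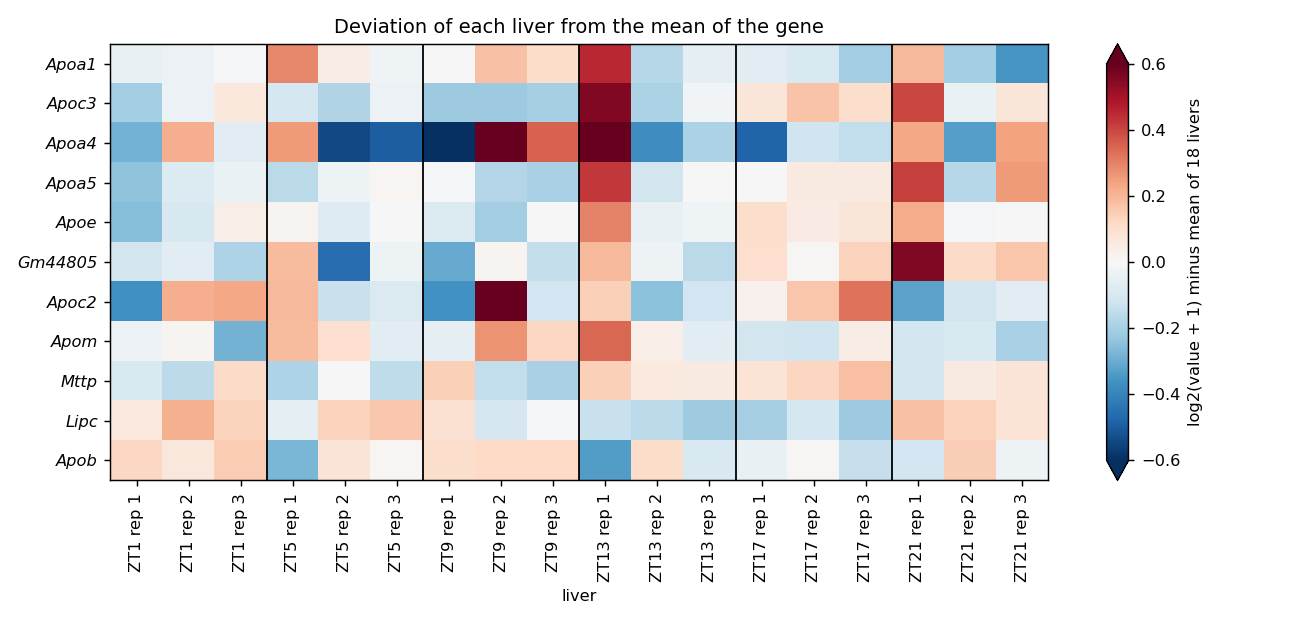
Difference of each liver (columns, grouped by time) from the mean of 18 livers for each row, on the log2(value + 1) scale, red above and blue below the mean with colours cut at 0.6 to either side. ZT13 replicate 1 is red in most rows and blue in Apob, and Lipc is blue throughout ZT13 and ZT17.

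Among the 55 pairs of rows, several members varied together from liver to liver, and pairs of other genes were not compared. As descriptions over 18 livers of log2 values, which share libraries and scaling, Pearson's r was 0.88 for Apoc3 with Apoe, 0.87 for Apoa5 with Apoc3 and 0.78 for Apoa5 with Apoe. After each time's mean was taken out, these were 0.87, 0.86 and 0.70. Apoa1 and Apoc3, neighbours on chromosome 9, had r = 0.30 over all livers and 0.80 within times. Apob ran opposite to this group, with r = -0.69 to Apoe, -0.67 to Apoc3 and -0.61 to Apoa5. ZT13 replicate 1 and ZT21 replicate 1 were both above the mean in Apoc3, Apoe and Apoa5 and below it in Apob. Their part in these values of r was not tested. Lipc had r = -0.04 with Apoa1 and 0.40 with Apob.

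A trend with gene length, here the number of bases covered by a gene's exons, also moved over the day. It was taken over 7525 genes with a mean value of at least 10. The slope of a liver's log2 deviations on log2 gene length was above 0 in all livers of ZT5 (0.036 to 0.057) and ZT9 (0.034 to 0.044) and below 0 in all of ZT13 (-0.045 to -0.011) and ZT17 (-0.052 to -0.050). At ZT1 (-0.008 to 0.035) and ZT21 (-0.058 to 0.020) it lay on both sides of 0. Across livers this slope had r = -0.78 with Apoc3, -0.68 with Apoe, -0.62 with Apoa5, 0.48 with Apob and 0.45 with Lipc. The trend was thus partly confounded with time of day. In a fit with the slope as a covariate, chosen after the values were seen, Lipc kept its call (difference 0.32, adjusted p = 0.0342), Apoa1 gained one (0.71, adjusted p = 0.0401) and both calls of Lipc between times were lost (adjusted p = 0.0518 and 0.403), with log2 differences of -0.33 for ZT13 against ZT1 and -0.33 for ZT17 against ZT5.

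The genes whose profile over the 18 livers was most like that of Lipc, among 7531 genes, were Acad8 (Pearson's r = 0.89), Sdc4 (0.85) and Gm4952 (0.85). Acad8, a mitochondrial acyl-CoA dehydrogenase of valine breakdown, had means of 62.8 ± 3.44 at ZT1 and 46.4 ± 1.10 at ZT13. Sdc4, a cell surface proteoglycan, had 297 ± 3.63 at ZT5 and 220 ± 10.3 at ZT17. Gm4952 had a wider swing, from 172 ± 9.45 at ZT1 to 57.6 ± 6.90 at ZT13.

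Of 108 further genes of lipoprotein metabolism in the table, the partners and regulators of the 10 members, 59 (54.6%) passed the 24 h test, against 35.3% of all genes. Their median difference was 0.41 (log2). That list includes clock genes, and the lists were drawn up with earlier results of these data known.

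Among 15 other apolipoproteins and partners, 6 were called (40%), near the 35.3% of all genes. Their fitted peaks were in the dark phase, as were 48.4% of those of all called genes, but that of Saa1, at ZT12.4 ± 1.2, was at the edge of it. Saa4, a serum amyloid A protein of HDL, went from 163 ± 20.4 at ZT5 to 415 ± 51.6 at ZT13 (difference 1.36 ± 0.15). Saa1, an acute phase relative, had the largest difference at 2.64 ± 0.82, but its highest mean was at ZT9, in the light, with an SD above that mean (332 ± 493). Saa1 has a near-identical relative, and its counts are uncertain for that reason, as are those of Ces1d, which has close relatives too. Apobec1, which edits Apob mRNA, went from 12.2 ± 3.80 at ZT9 to 20.8 ± 2.88 at ZT1 (0.75 ± 0.15). The remaining 3, Apoc1 (0.31 ± 0.09), Apon (0.30 ± 0.09) and Apoa2 (0.28 ± 0.08), were of the size of Lipc.

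Among 27 genes of particle assembly and secretion, 15 were called (55.6%, against 35.3% of all genes). Of these, 5 had a peak in the light and 10 in the dark, where 48.4% of all called genes had theirs. Some fitted peaks were near lights off, so this split is not firm. Cidec (ZT12.1 ± 0.8, SE) and Dgat2 (ZT12.6 ± 0.4) counted as dark and Sar1a (ZT11.6 ± 1.0) as light. Sort1, sortilin, which binds apolipoprotein B in the secretory pathway, went from 12.1 ± 0.36 at ZT17 to 35.4 ± 4.13 at ZT5 (1.58 ± 0.15). Ces1d, a triglyceride hydrolase, peaked in the dark, from 458 ± 117 at ZT5 to 1308 ± 291 at ZT13 (1.38 ± 0.19). Dgat2, which makes triglyceride, went from 326 ± 12.7 at ZT1 to 659 ± 20.2 at ZT13 (0.92 ± 0.09). Sar1b, a coat protein of the vesicles that carry particles from the endoplasmic reticulum, and P4hb, the small subunit that works with Mttp, had smaller differences of 0.47 ± 0.10 and 0.38 ± 0.08, with peaks at ZT18.1 and ZT17.0.

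Of 10 genes of HDL formation and remodelling, 5 were called (50%, against 35.3% of all genes). The cholesterol exporters Abcg8 (2.27 ± 0.14, peak at ZT6.6) and Abcg5 (1.85 ± 0.14, ZT8.0), which work as a pair, had the largest differences, followed by Lipg, endothelial lipase, at 1.67 ± 0.33 (ZT10.6). Of 15 receptors and uptake genes, 7 were called (46.7%), led by Mylip, which degrades the LDL receptor (0.82 ± 0.20). Next came Lrp2, at low values of at most 1.92 ± 0.16 (0.71 ± 0.20), and Lsr, a lipoprotein receptor (0.57 ± 0.11). Of 14 lipases and their regulators, 6 were called (42.9%). Beside Lipg these included Lpl, lipoprotein lipase (1.53 ± 0.27, ZT2.9), with a mean of 62.7 ± 50.6 at ZT5, and Sel1l, a protein quality factor of the endoplasmic reticulum (0.51 ± 0.12, ZT15.9). Of 30 transcription regulators 21 were called (70%), led by Nr1d1 (5.57 ± 0.25), Arntl (3.78 ± 0.34) and Nr1d2 (3.56 ± 0.21).

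**Figure D4:**
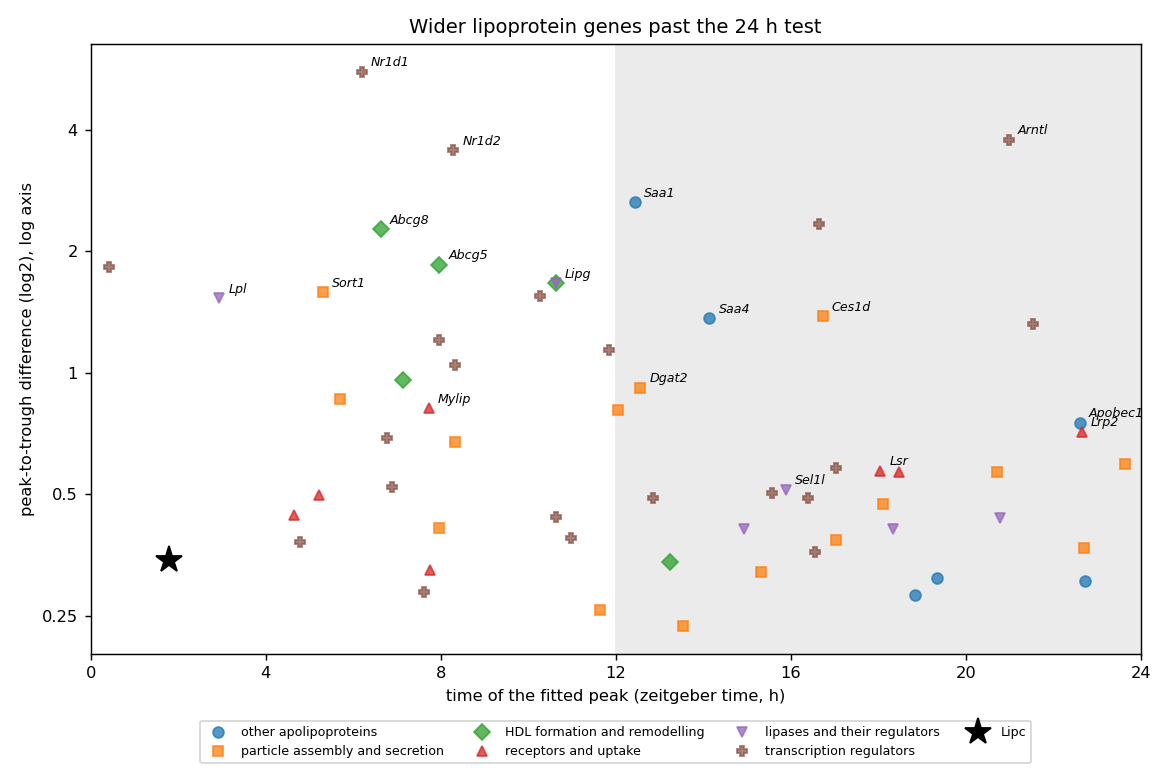
Fitted peak-to-trough difference (y axis, log2, on a log axis) against the time of the fitted peak (x axis, h) for the wider genes past the 24 h test, with the list shown by marker, the dark phase in grey, and Lipc as a star. Abcg8, Abcg5 and Sort1 peak in the light phase and Ces1d, Dgat2 and Saa4 in the dark phase, all with larger differences than the 0.34 of Lipc.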

How the data were processed

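RNA of 18 livers was sequenced on a HiSeq2500 after NEBNext Ultra library preparation. Per the study's methods and the submitters' processing notes, the authors demultiplexed with CASAVA 1.8.2, removed adapters with cutadapt and quantified reads against GRCm38 transcripts with RSEM 1.2.20. The authors deposited a linear signal: each RSEM estimated count, raised by 0.5 reads, was divided by a library size of theirs and multiplied by 1000000. They added up to 941088 to 1077230 per liver, and only 39.1% to 47.9% were whole reads (within 0.001 reads), so no count test was used. Livers were grouped by their labelled time. Titles carry no shared replicate number, and replicates are numbered in accession order. Livers came from different mice.

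Of 14451 genes, 2 were at the lowest value everywhere and 14449 were tested. log2(value + 1) was fitted with limma 3.58.1 (R 4.3.3), and fold changes are on that scale. Tests were a moderated F test of 24 h cosine and sine terms, of 12 h terms beside them and of 6 times, and contrasts between 6 neighbouring and 3 opposite pairs of times, all over 18 livers with no covariate and Benjamini-Hochberg adjustment over all genes. A gene was called at an adjusted p below 0.05. The code was tested on simulated data.

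Named were all members, up to 3 genes past the 24 h test with the largest difference in each wider list (others were named after their values were seen), the 3 genes most like Lipc in Pearson's r and 4 clock genes. The members and lists were chosen with earlier results of these data known. Coordinates are from GENCODE M21, sequences from RefSeq. Alternatives were pseudocounts of 0.1 and 10, a mean of at least 1, plain totals, quantile and median-of-ratios scaling, a variance trend, each liver left out, linear values, the JTK rank test (periods of 20, 24 and 28 h), 24 h terms tested beside 12 h terms, and, chosen after seeing the data, a gene length covariate and the Apoc2 rows added up. CircaN itself was not run.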

Additional observations from a re-analysis of the deposited data

How the results depend on the processing

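Lipc was called for a 24 h rhythm in all 29 alternatives (adjusted p 0.000648 to 0.0342 over the limma fits on log2 values, 0.00104 to 0.0269 over the others). The 11 rows held 3 calls with a pseudocount of 10 and with a variance trend (Apom and Mttp added), 2 with plain totals (Apom added), 2 with linear values (Mttp added) and 2 with the gene length covariate (Apoa1 added), and 1 to 3 without each liver in turn. With that covariate 0 rows differed over the 6 times, 0 comparisons of opposite times were called, 28 wider genes (59 before) and 1894 of all genes (5103 before) had a rhythm. JTK called 3237 of all genes. Median-of-ratios scaling left 1 call between opposite times, and leaving out livers left 0 to 2. Between neighbouring times 1 call appeared with a pseudocount of 10, plain totals, a variance trend and linear values each. Leaving out livers gave 51 to 59 wider genes, 4573 to 5088 of all genes, 0 calls between neighbouring times, 0 of a 12 h term and 1 for any difference. No direction of a called value reversed. The causes of these changes were not tested. No paired analysis was possible because the labels give the times no shared replicate numbers. The smallest rhythm that would have been called ran from 1.17-fold in Lipc to 2.16-fold in Apoa4.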

Other observations

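Some markers of other liver cells also passed the 24 h test, and their part in the results above was not tested. Of 10 markers of Kupffer cells and macrophages 5 passed it, led by Marco with a peak-to-trough difference of 1.49 (log2) and a peak at ZT8.5. Marco was low and uneven, at 6.74 ± 3.78 (SD, n = 3) at ZT5. Of 8 markers of sinusoidal endothelium 4 passed. The called markers of both cell types had a peak in the light phase. Of 8 stellate cell markers 1 was called (Col3a1, 0.65, peak at ZT7.3). Cholangiocyte markers were called in 3 of 5, led by Sox9 at 1.14 and ZT20.9. Their fitted peaks were in the dark phase, as were 48.4% of those of all called genes. That of Epcam, at ZT12.6 ± 1.1 (SE), was at the edge of it. The highest mean of Epcam was at ZT9, in the light (1.79 ± 0.88, SD, n = 3). Hepatocyte markers were called in 5 of 8, led by Cyp2e1 at 0.77 and ZT11.7. None of 8 blood, 2 intestinal or 2 pancreatic markers in the table was called. Over all genes tested 35.3% were. The test for differences of any shape called fewer of these markers. It called 1 of 10 for macrophages, 0 of 8 for endothelium and 0 of 8 for stellate cells. For cholangiocytes it called 1 of 5 and for hepatocytes 3 of 8, against 26.3% of all genes.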
